A study of Gallus gallus with 4 samples.

Results

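The genes described here encode the glycosyltransferases and sulfotransferases that build the sugar chains of mucins, cell surface glycoproteins, glycolipids and proteoglycans. Members were taken by symbol, as gene names starting with GALNT and a digit, C1GALT, GCNT, ST3GAL, ST6GAL, ST8SIA, B3GNT, B3GALT, B4GALT, FUT and a digit, or CHST, with a mean of at least 1 CPM (counts scaled to library size) over the 4 libraries. Of 26296 genes in the table, 81 had such a symbol and 75 reached that level. All 75 also passed the filter on low counts of the test. The lowest member inside the limit was GALNT9, with a mean of 1.03 CPM, and the highest outside it was CHST8, with 0.674 CPM. The other genes outside it were GCNT1 (0.472 CPM), GALNT14 (0.291 CPM), B4GALT4 (0.0943 CPM), ST8SIA3 (0.0474 CPM) and B3GNTL2, which had no read in any library.

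RNA of the trachea was sequenced from chickens 42 days old, in 2 groups of 2 libraries. Exposed chickens lived in a chamber supplied with hydrogen sulfide, held at 3.5 to 4.5 mg/kg during weeks 0 to 3, then at 19.5 to 20.5 mg/kg during weeks 4 to 6, and control chickens lived in a chamber with none added. The gas and any other difference between the chambers cannot be told apart. The sources do not say whether a library holds RNA of a single bird or of several, nor do they name a strain, so p-values measure only the spread between these libraries.

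Mucin-type sugar chains start when a GALNT enzyme in the Golgi attaches N-acetylgalactosamine to a serine or threonine. C1GALT1 adds galactose to give the core 1 chain, GCNT enzymes branch it, and B3GNT and B4GALT enzymes lengthen the branches. Sialyltransferases (ST3GAL, ST6GAL, ST8SIA), fucosyltransferases (FUT) and sulfotransferases (CHST) then cap the chains. In the airway these caps give mucus its charge, and sialic acids on epithelial cells serve as receptors for influenza viruses. Many of the same families also act outside mucins, on N-linked chains, on gangliosides and on the chondroitin and keratan sulfate of cartilage.

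Total counts were 22283320 and 22706119 reads in exposed replicates 1 and 2, and 17400644 and 16899066 in control replicates 1 and 2. From here on, levels are given as CPM normalised for library composition (TMM). Tissue markers were present. The ciliated cell factor FOXJ1 stood at 157 to 232 CPM and the cartilage collagen COL2A1 at 2793 to 12943 CPM over the 4 libraries. The basal cell factor TP63 stood at 52.6 and 41.3 CPM in the exposed libraries and at 84.9 and 69.0 CPM in the controls (edgeR adjusted p = 0.817). Of 13 basal cell markers, 7 had a log2 fold change (exposed over control) above 0. Libraries of a group were unlike each other. Cartilage markers added up to 21373 and 32194 CPM in the exposed libraries, 7072 CPM in control replicate 1 and 35464 CPM in control replicate 2. Skeletal and smooth muscle markers added up to 9994 and 4140 CPM in the exposed libraries and to 9507 and 1614 CPM in the controls. Genes placed on the W chromosome added up to 488 and 151 CPM in the exposed libraries and to 136 and 489 CPM in the controls, so each group holds a library with many W-linked reads and a library with few.

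No member passed the test between exposed and control tracheas. The quasi-likelihood test of edgeR called 0 of the 75 members and 0% of all 16545 genes tested at an adjusted p under 0.05, and the smallest adjusted p of a member was 0.828. All log2 fold changes are exposed over control. DESeq2 called 132 genes (0.302% of genes tested as higher and 0.496% as lower), of which 0 were members, with a smallest adjusted p of 0.338 for a member. The limma-voom test also called 0 members. At an unadjusted edgeR p under 0.05, 3 members were higher and 3 were lower, or 4% each way, against 2.12% and 3.48% of all genes tested. For any gene on its own, the smallest p that exact permutation of these libraries allows is 0.333.

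In count, the family was close to the table as a whole. Of the 75 members, 42 had a log2 fold change above 0, or 56%, against 51.6% of genes tested. The median was 0.03 for members and 0.01 for all genes tested, and scaling by library totals instead made these -0.06 and -0.07. For 14 members both exposed libraries lay above both controls, and for 14 both lay below, or 18.7% each way, against 15.3% and 17.2% of genes tested. For 59 of the 75, the larger of the 2 log2 differences within groups exceeded the size of the log2 fold change. The share of all genes tested that meets this rule is not given, so the count is not read as a trait of the family. The levels spanned less than 1.5-fold over all 4 libraries in 25 members, while 23 members spanned at least 2-fold and 13 at least 3-fold.

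**Figure D1:**
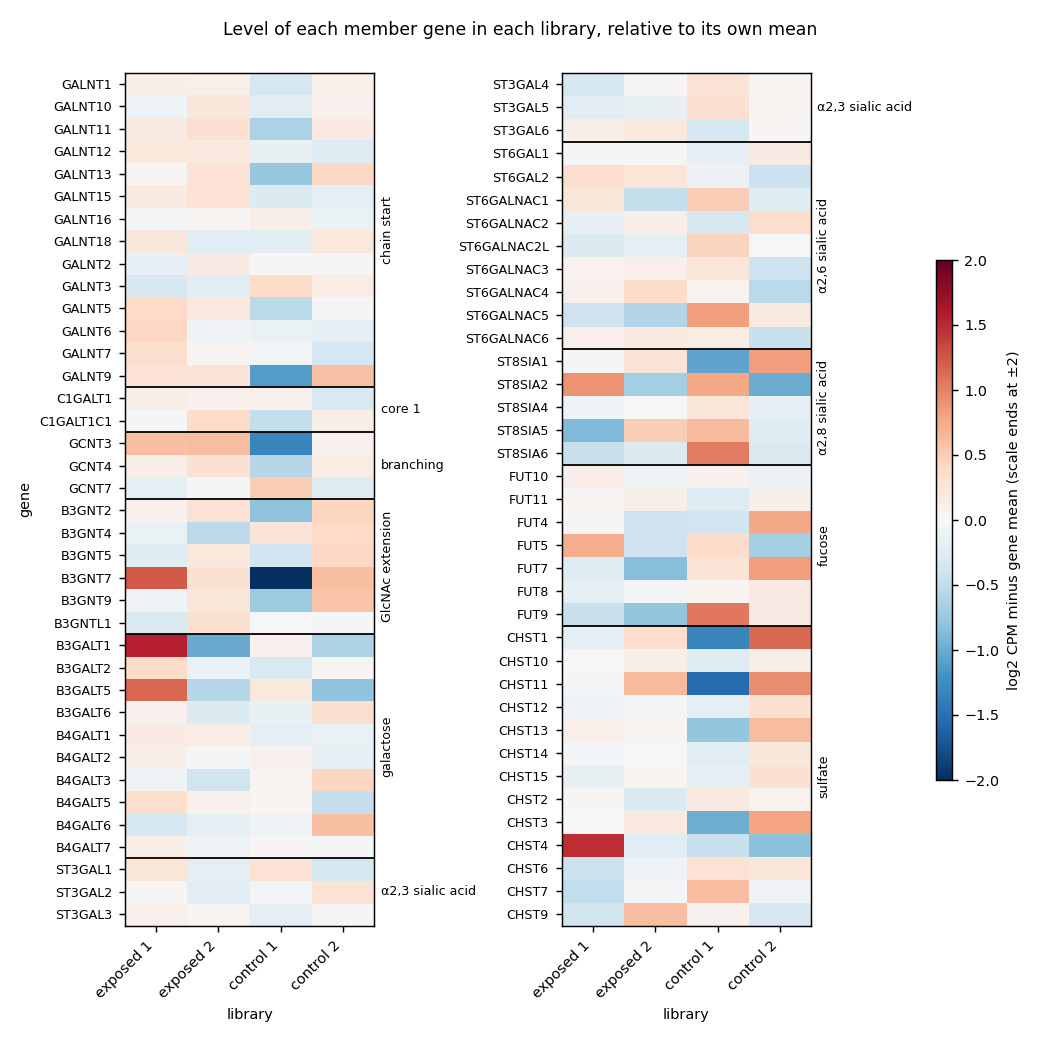
Each row is a member gene and each column a library, with lines between roles. Color gives the log2 CPM of the library minus the gene's mean over the 4 libraries, red above and blue below the mean. Strong colors lie mostly in single libraries, such as the low values of B3GNT7, CHST11, CHST1 and GCNT3 in control replicate 1.

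The enzymes that start mucin chains had 12 of 14 members above 0, with a median log2 fold change of 0.28. That median stayed above 0 with library totals (0.21, with 10 of 14 above 0). It was 0.07, with 9 of 14 above 0, when control replicate 1 was left out. Of the 14, 7 were lowest in control replicate 1 (50%, against 28.5% of genes tested). In 6 of the 14 the exposed libraries both lay above the controls (GALNT5, GALNT6, GALNT7, GALNT11, GALNT12 and GALNT15), and in 1 both lay below (GALNT3). Of all genes tested, 15.3% lay above and 17.2% lay below in this way. GALNT12 stood at 108 and 107 CPM in the exposed libraries and at 84.6 and 78.1 CPM in the controls. The exposed libraries were nearly equal and both exceeded the controls (log2 fold change 0.40, SE 0.14; edgeR adjusted p = 0.869). GALNT15 stood at 54.2 and 58.6 CPM against 39.4 and 42.0 CPM (0.47, SE 0.15; edgeR adjusted p = 0.834). As means ± SD over 2 libraries, GALNT12 had 107 ± 0.390 against 81.3 ± 4.64 CPM and GALNT15 had 56.4 ± 3.11 against 40.7 ± 1.79 CPM.

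GALNT3, which in mammals glycosylates the hormone FGF23 and protects it from cleavage, went the other way. It stood at 109 and 117 CPM in the exposed libraries and at 178 and 152 CPM in the controls (means 113 ± 5.63 and 165 ± 18.3 CPM, SD, n = 2; difference -0.54 on the log2 scale, SE 0.16; edgeR adjusted p = 0.828). GALNT1, the member with the most reads, stood at 334 and 326 CPM in the exposed libraries. Its controls were at 241 and 326 CPM, so control replicate 2 matched the exposed libraries and only control replicate 1 was lower. GALNT10, which in mammals prefers substrates that already carry a sugar, stood at 163 and 204 against 152 and 185 CPM, and the groups overlapped. GALNT7, another enzyme of that kind, stood at 124 and 101 CPM against 94.2 and 76.0 CPM (0.41, SE 0.20; edgeR adjusted p = 0.973). GALNT5 stood at 24.9 and 21.6 against 13.0 and 18.4 CPM, GALNT6 at 49.7 and 35.2 against 34.1 and 32.6 CPM, and GALNT11 at 43.8 and 47.4 against 24.8 and 43.0 CPM. In these 3 the exposed libraries were higher. The margin was small in GALNT11 (exposed replicate 1 over control replicate 2) and in GALNT6 (exposed replicate 2 over control replicate 1). The remaining members of this step (GALNT2, GALNT9, GALNT13, GALNT16 and GALNT18) had log2 fold changes from -0.01 in GALNT16 to 0.31 in GALNT9.

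The next step had 2 of 2 members above 0, with a median log2 fold change of 0.25. C1GALT1, the core 1 synthase, stood at 229 and 226 CPM in the exposed libraries and at 227 and 171 CPM in the controls. The chaperone that this enzyme needs for folding, C1GALT1C1, stood at 18.7 and 24.7 against 13.7 and 21.0 CPM. Neither gene separated the groups.

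Among the branching enzymes, GCNT3, which makes core 2 and core 4 branches in mammalian mucous epithelium, stood at 9.22 and 9.32 CPM in the exposed libraries. The controls were at 2.45 and 6.43 CPM. Both were lower than the exposed libraries but differed from each other by more than the second differed from the exposed (log2 fold change 1.06, SE 0.51; edgeR adjusted p = 0.973). These values rest on 199 and 206 reads against 45 and 109. The estimate was 0.53 without control replicate 1 and 1.90 without control replicate 2. GCNT4, another core 2 enzyme, stood at 29.3 and 33.3 against 18.2 and 29.8 CPM. GCNT7 stood at 4.17 and 4.66 against 6.71 and 4.01 CPM, with overlap in both cases.

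**Figure D2:**
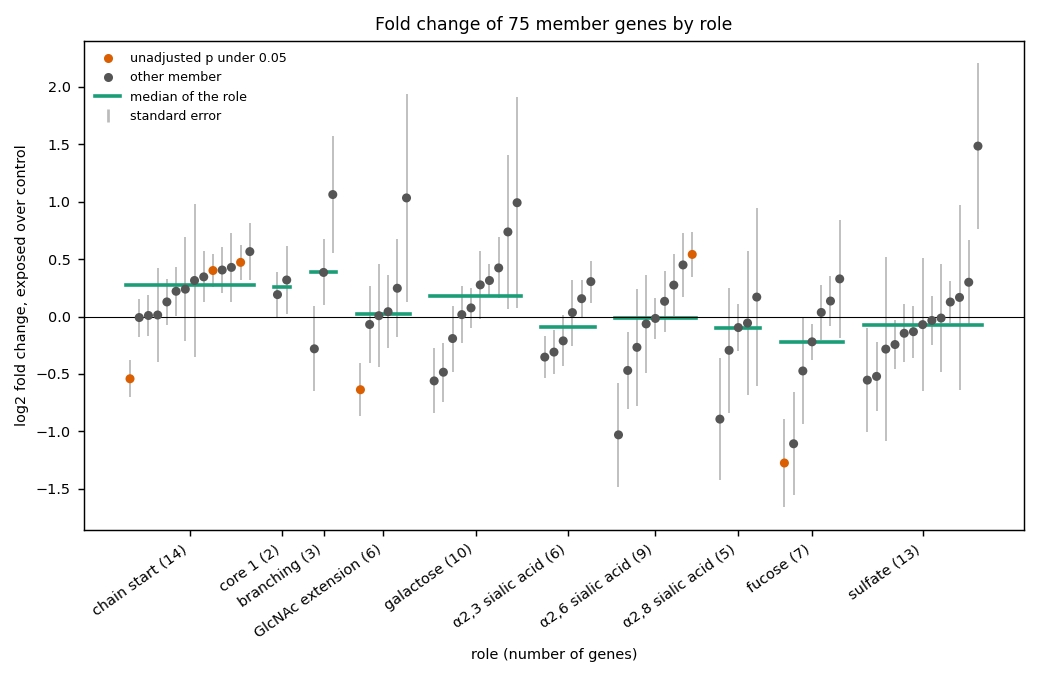
Points give the log2 fold change (exposed over control) of each member with its standard error, ordered by size within each role, and green lines give the median of the role. Orange marks the 6 members with an unadjusted p under 0.05, and the chain start group lies mostly above 0, with GALNT3 below.

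In the chain extension step, the controls differed more from each other than the exposed libraries did in B3GNT2, B3GNT5, B3GNT7 and B3GNT9. In B3GNT4 and B3GNTL1 they did not. B3GNT7, which lengthens keratan sulfate chains in mammals, stood at 24.3 and 12.8 CPM in the exposed libraries and at 2.34 and 15.8 CPM in the controls. The controls thus lay on either side of exposed replicate 2, and the span over the 4 libraries was 10.4-fold, the widest of all members. B3GNT2, the main enzyme of poly-N-acetyllactosamine chains in mammals, stood at 131 and 151 CPM against 71.0 and 167 CPM. B3GNT9 stood at 93.3 and 117 CPM against 60.9 and 149 CPM. In both genes the controls held the lowest and the highest value. B3GNT4 was the member of this step that separated the groups, at 15.2 and 11.7 CPM with exposure and 19.9 and 22.0 CPM in the controls (means 13.5 ± 2.52 and 20.9 ± 1.45 CPM, SD, n = 2; difference -0.64 on the log2 scale, SE 0.23; edgeR adjusted p = 0.869).

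The galactosyltransferases had 7 of 10 members above 0, with a median of 0.18. Without exposed replicate 1 these were 3 of 10 and -0.23, and with library totals 5 of 10 and 0.09. B4GALT1, which adds galactose to N-acetylglucosamine and has the most reads of this step, stood at 207 and 204 CPM in the exposed libraries and at 163 and 168 CPM in the controls. Its libraries were tight within each group and did not overlap (log2 fold change 0.31, SE 0.15; edgeR adjusted p = 0.971). B4GALT2 stood at 61.4 and 54.7 against 59.9 and 50.3 CPM and overlapped. B4GALT6, a lactosylceramide synthase, stood at 22.4 and 25.1 against 26.7 and 43.3 CPM (-0.56, SE 0.28; edgeR adjusted p = 0.985). Its estimate ranged from -0.86 to -0.18 when a library was left out. B4GALT5, the other lactosylceramide synthase, had a positive value (0.42, SE 0.27; edgeR adjusted p = 0.999). B4GALT3 stood at 12.9 and 10.4 against 14.2 and 18.4 CPM, lower in both exposed libraries. The enzymes of the proteoglycan linker, B4GALT7 and B3GALT6, had log2 fold changes of 0.02 and -0.19.

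Sialyltransferases showed no common direction. Of the 6 that attach sialic acid in α2,3 linkage, 3 lay above 0 and 3 below, with a median of -0.09. ST3GAL1, which caps the core 1 chain, stood at 153 and 113 CPM in the exposed libraries and at 158 and 102 CPM in the controls. Its groups coincided while replicate 1 exceeded replicate 2 in each. ST3GAL6 stood at 115 and 120 against 83.3 and 107 CPM, higher in both exposed libraries (0.30, SE 0.18; edgeR adjusted p = 0.999). ST3GAL5, which makes the ganglioside GM3, stood at 23.3 and 24.3 against 33.0 and 27.9 CPM, lower in both (-0.35, SE 0.18; edgeR adjusted p = 0.999). ST3GAL4 stood at 52.4 and 66.9 against 78.9 and 68.9 CPM, also lower, and ST3GAL3 at 40.1 and 39.0 against 33.0 and 37.9 CPM, higher by a small margin.

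Of the 9 enzymes of α2,6 linkage, 4 lay above 0 and 5 below. ST6GAL1, which caps N-linked chains and is abundant in B cells, stood at 185 and 191 CPM in the exposed libraries and at 169 and 211 CPM in the controls. Its exposed values lay between those of the controls (log2 fold change -0.02, SE 0.18; edgeR adjusted p = 0.999). B cell and plasma cell markers added up to 2856 and 2427 CPM in the exposed libraries and to 13273 and 11668 CPM in the controls, with 0 of 18 above 0, a median log2 fold change of -0.94 and no marker without a read. Their part in the ST6GAL1 level was not tested, and in RNA of whole tissue fewer cells of a type and less RNA per cell cannot be told apart. ST6GAL2, with the same linkage, stood at 29.5 and 28.0 CPM in the exposed libraries and at 21.8 and 17.7 CPM in the controls. All exposed values exceeded the controls (28.8 ± 1.12 against 19.8 ± 2.91 CPM, SD, n = 2; 0.54, SE 0.20; edgeR adjusted p = 0.869).

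ST6GALNAC enzymes attach sialic acid to N-acetylgalactosamine. ST6GALNAC1, the sialyl-Tn synthase, was near the limit of the member rule, with 35 and 22 reads after exposure and 36 and 20 in the controls. ST6GALNAC3 stood at 28.8 and 29.4 against 32.4 and 20.7 CPM and overlapped. ST6GALNAC5, a ganglioside enzyme, had 22 and 20 reads against 44 and 26, or 1.02 and 0.905 CPM against 2.40 and 1.53 CPM (-1.03, SE 0.45; edgeR adjusted p = 0.955). In the reference assembly, ST6GALNAC4 and ST6GALNAC6 are next to each other on chromosome 17, and ST6GALNAC1 and ST6GALNAC2 on chromosome 18. ST6GALNAC4 stood at 23.5 and 28.3 against 22.9 and 14.99 CPM, and ST6GALNAC6 at 18.1 and 19.2 against 18.6 and 12.3 CPM. Both had their highest value in exposed replicate 2 and their lowest in control replicate 2. The assignment of reads between neighbouring genes was not stated in the labels, and the same holds for the related ST6GALNAC2 and ST6GALNAC2L.

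The α2,8 enzymes differed mainly within groups. ST8SIA2, which makes polysialic acid on the neural cell adhesion molecule, stood at 17.6 and 5.88 CPM in the exposed libraries and at 16.1 and 4.72 CPM in the controls. Replicate 1 exceeded replicate 2 about equally in both groups, by 2.98-fold and 3.41-fold. ST8SIA4, the other polysialic acid enzyme, stood at 31.2 and 33.0 against 39.0 and 29.5 CPM. ST8SIA6 had 50 and 57 reads against 119 and 44, so its lower fitted value (-0.89, SE 0.53; edgeR adjusted p = 0.999) rested on control replicate 1 and was -0.08 without it.

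Of 5 members on the Z chromosome, 4 spanned less than 2-fold (B4GALT1, GCNT4, ST8SIA4 and FUT10). The fifth, ST8SIA5, a ganglioside enzyme, stood at 19.2 and 49.8 CPM in the exposed libraries and at 54.6 and 29.9 CPM in the controls. It was higher in the library of each group with few W-linked reads. ST8SIA4 had the same order by a smaller margin, at 31.2 and 33.0 against 39.0 and 29.5 CPM. The 629 genes tested on the Z chromosome had that order as a class. Their median log2 deviation was -0.247 and 0.296 in exposed replicates 1 and 2, and 0.286 and -0.296 in control replicates 1 and 2. Ciliated cell markers had that order too, with 19 of 21 higher in those libraries and sums of 2049 and 3261 against 2651 and 2246 CPM. The same order within both groups held in 17 of 75 members and in 3498 of 16545 genes tested. The parts of sex-linked reads and of ciliated cells in the ST8SIA5 and ST8SIA4 levels were not tested. FUT10 stood at 12.7 and 10.7 against 12.2 and 10.6 CPM.

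**Figure D3:**
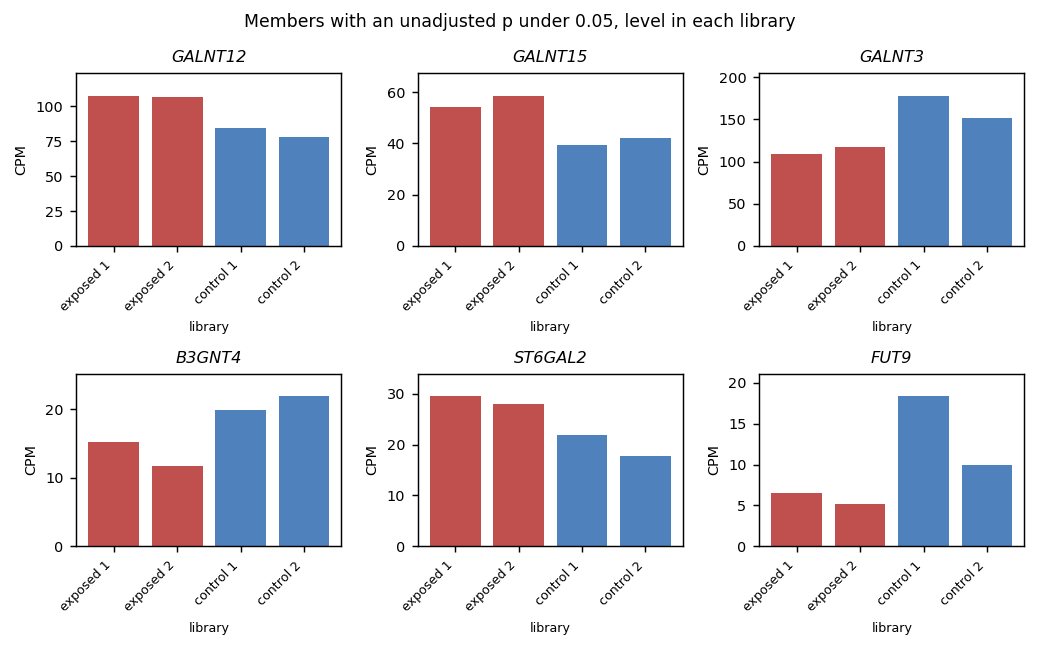
Bars give the TMM-normalised CPM of the 6 members with an unadjusted p under 0.05 in each library, red for exposed and blue for control. In all 6 the groups do not overlap, which choosing genes by a small p favours. None passed after adjustment over the 16545 genes tested.

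The fucosyltransferases had 3 of 7 members above 0, with a median of -0.22 (-0.30 with library totals). FUT9, which makes the Lewis X structure, stood at 6.53 and 5.16 CPM in the exposed libraries and at 18.4 and 9.91 CPM in the controls. Both controls were higher. In CPM they differed more from each other than control replicate 2 differed from either exposed library. As a ratio this held for exposed replicate 1 but not for exposed replicate 2. The group means were 5.84 ± 0.971 and 14.1 ± 5.98 CPM (SD, n = 2). The log2 fold change was -1.28 (SE 0.39), with an adjusted p of 0.829 in edgeR and of 0.338 in DESeq2. The estimate was -0.76 without control replicate 1 and -1.66 without control replicate 2. FUT7, which makes selectin ligands on mammalian leukocytes, had 34 and 23 reads with exposure and 42 and 57 among the controls, or 1.57 and 1.04 CPM against 2.29 and 3.36 CPM (-1.11, SE 0.45; edgeR adjusted p = 0.912). Markers of T cells and natural killer cells, which added up to 270 and 254 against 327 and 414 CPM, had 3 of 21 above 0, and macrophage and dendritic cell markers had 5 of 20. Their part in the FUT7 level was not tested. FUT8, which adds the core fucose of N-linked chains, stood at 157 and 173 against 184 and 200 CPM, a small separation (-0.22, SE 0.16; edgeR adjusted p = 0.999). FUT4, another Lewis X enzyme, stood at 8.34 and 6.15 against 6.27 and 13.9 CPM. FUT5 stood at 78.8 and 35.7 against 61.2 and 30.0 CPM, and the groups overlapped.

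Sulfotransferases had 4 of 13 members above 0, with a median of -0.07. Leaving out control replicate 1 gave a median of -0.36, and leaving out control replicate 2 gave 0.20. CHST11, which sulfates chondroitin at the 4-O position and is needed for growth cartilage in mice, stood at 189 and 295 CPM in the exposed libraries and at 65.4 and 365 CPM in the controls. The controls held both extremes, 5.59-fold apart. Its log2 fold change of 0.17 (SE 0.81; edgeR adjusted p = 0.999) was 1.88 without control replicate 2 and -0.59 without control replicate 1. CHST3, of chondroitin 6-O-sulfation, stood at 49.5 and 57.3 against 25.4 and 86.7 CPM, and CHST1, of keratan sulfate, at 7.55 and 10.9 against 3.44 and 19.0 CPM. CHST13, another chondroitin 4-O enzyme, stood at 42.7 and 40.9 against 23.2 and 61.2 CPM.

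Outside this set, CHST10, which makes the HNK-1 epitope, stood at 95.4 and 105 against 80.3 and 103 CPM. CHST4, which in mammals sulfates mucin and selectin ligand chains, had 63 and 20 reads with exposure and 14 and 10 among the controls. Its level was 2.92 and 0.905 CPM against 0.763 and 0.590 CPM, so the high fitted value (log2 fold change 1.48, SE 0.72; edgeR adjusted p = 0.974) rested on exposed replicate 1 and was 0.42 without it. CHST9, which sulfates terminal N-acetylgalactosamine, stood at 27.3 and 53.4 against 37.5 and 28.1 CPM. In each group it was higher in the library with few W-linked reads, the order that ciliated cell markers also had. The gene lies on chromosome 2. The parts of bird sex and of ciliated cells in its level were not tested. CHST6 stood at 3.33 and 4.16 against 5.45 and 5.31 CPM (-0.52, SE 0.30; edgeR adjusted p = 0.999).

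A total of 9 members spanned at least 2-fold with their lowest level in control replicate 1 and their highest in control replicate 2. They were CHST1, CHST3, CHST11, CHST13, B3GNT2, B3GNT9, ST8SIA1, GALNT9 and GALNT13. ST8SIA1, the ganglioside GD3 synthase, stood at 14.3 and 17.6 against 7.03 and 26.1 CPM. The summed cartilage markers had the same order in the controls, 18 of the 20 markers were lowest in control replicate 1, and none was without a read. Of all members, 40% were lowest in that library, against 28.5% of genes tested. Without the 2-fold limit, 16 of 75 members and 1850 of 16545 genes tested were lowest in control replicate 1 and highest in control replicate 2. The share of genes tested that also spanned 2-fold is not given. The part of cartilage content in these levels was not tested.

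Another 6 of the 75 members were at least 1.3-fold higher in replicate 1 than in replicate 2 of both groups. Of 16545 genes tested, 1551 met the same limit, or 9.37%. Without a fold limit, 25.3% of members and 29.7% of genes tested were higher in replicate 1 of both groups, so the order was not particular to the members. The 6 members were B3GALT1, B3GALT5, ST3GAL1, ST6GALNAC1, ST8SIA2 and FUT5. B3GALT5, which builds type 1 chains, stood at 24.5 and 7.42 CPM in the exposed libraries and at 12.8 and 6.31 CPM in the controls. B3GALT1 had 81 and 14 reads against 25 and 14. Of the muscle markers, 17 of 20 were higher in replicate 1 of both groups, and none was without a read. Their part in these levels was not tested. These sets of members were chosen after their values were seen.

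**Figure D4:**
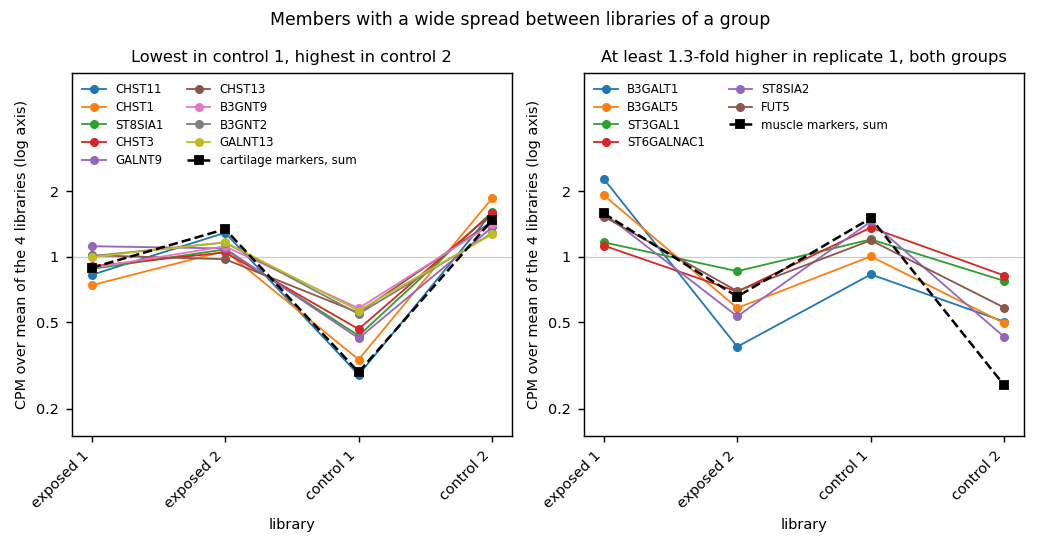
Lines give the CPM of members divided by their mean over the 4 libraries, on a log axis, with the summed CPM of the cartilage list (left) and of the muscle list (right) as dashed lines scaled the same way. The 9 members on the left dip in control replicate 1, as the cartilage markers do, and the 6 on the right are higher in replicate 1 of both groups.

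None of the genes that make and carry the sugar and sulfate donors of the transferases passed in edgeR or DESeq2. Of 41 such genes 31 lay above 0, with a median log2 fold change of 0.17 (0.10 with library totals, and 0.17 to 0.36 when a library was left out). In 17 both exposed libraries exceeded both controls, and in 1 both were lower, against 15.3% and 17.2% of genes tested. A difference between this list and the members or the whole table was not tested. SLC35A1, which carries the sialic acid donor into the Golgi, stood at 49.3 and 47.5 CPM in the exposed libraries and at 29.8 and 33.2 CPM in the controls (0.62, SE 0.16; edgeR adjusted p = 0.762). GMDS, which starts the synthesis of the fucose donor, stood at 87.7 and 84.2 against 64.6 and 60.0 CPM. SLC35A5, a nucleotide sugar transporter, went the other way, at 31.3 and 35.4 against 49.7 and 42.1 CPM (-0.46, SE 0.18; edgeR adjusted p = 0.906).

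GFPT1, the first enzyme of the hexosamine pathway, stood at 1108 and 796 against 422 and 679 CPM. PAPSS2, which makes the sulfate donor, stood at 131 and 160 CPM in the exposed libraries against 37.5 and 108 CPM in the controls, with control replicate 1 far below the rest. In this list 58.5% of genes were lowest in control replicate 1, the library with the fewest cartilage reads, and the part of cartilage content was not tested. GMDS, GFPT1 and PAPSS2 were named after their values were seen.

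Other glycan enzymes outside the symbol rule, listed together with the protein tyrosine sulfotransferases TPST1 and TPST2, had 41 of 75 above 0 and a median of 0.03. With library totals these were 26 of 75 and -0.06, and the members had 42 and 34 of 75 above 0 under the same scalings. B4GALNT3, which adds N-acetylgalactosamine to N-acetylglucosamine, stood at 121 and 124 CPM in the exposed libraries and at 64.8 and 84.6 CPM in the controls (0.71, SE 0.19; edgeR adjusted p = 0.762). TPST2, a tyrosine sulfotransferase, stood at 12.8 and 14.1 against 20.0 and 23.5 CPM (-0.69, SE 0.21; edgeR adjusted p = 0.828). Enzymes that remove sugars or sulfates, listed together with CASD1 and NPL, which have other activities, had 14 of 28 above 0. Their median was 0.00115, and -0.08 with library totals. The lysosomal mannosidase MANBA was the lower gene with the smallest p among them, at 77.9 and 71.4 against 105 and 98.5 CPM (-0.45, SE 0.15; edgeR adjusted p = 0.836). GLB1L stood at 14.9 and 16.4 against 9.98 and 13.9 CPM.

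Golgi structure and transport genes had 28 of 39 above 0 and a median of 0.06. With library totals these were 16 of 39 and -0.02. The Golgi calcium and manganese pump ATP2C2 stood at 173 and 151 against 115 and 125 CPM (0.43, SE 0.16; edgeR adjusted p = 0.876). TMED2, a cargo receptor, stood at 275 and 292 against 322 and 365 CPM.

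The list of mucins and mucous cell genes, which holds acceptors of mucin-type chains and other genes, had a larger median than the enzymes. Mucins and mucous cell genes had 16 of 20 above 0 and a median of 0.71 (0.62 with library totals, 0.35 without exposed replicate 1), against the members' 0.03. In edgeR 0 of them passed and 6 had an unadjusted p under 0.05, and 4 passed in DESeq2 (AGR2, SPDEF, MUC and LOC395381). Of those the mucin gene listed as MUC stood at 5168 and 3299 CPM in the exposed libraries and at 866 and 1595 CPM in the controls (1.78, SE 0.49; edgeR adjusted p = 0.780, DESeq2 adjusted p = 0.00678). FOXA2, an epithelial transcription factor, had the smallest p among the lower genes, at 6.07 and 8.69 against 8.29 and 9.38 CPM. CREB3L1, a transcription factor of secretory cells named after its values were seen, stood at 179 and 164 against 106 and 107 CPM. The difference in median between this mixed list and the transferases was not tested.

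**Figure D5:**
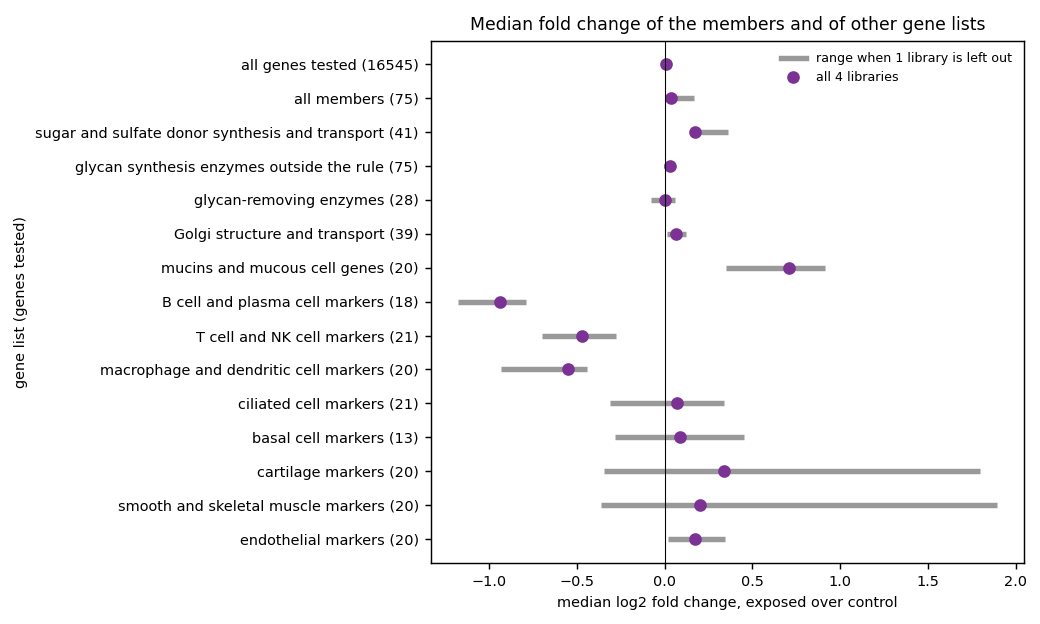
Points give the median log2 fold change (exposed over control) of the members, of all genes tested and of other gene lists, and grey bars give the range of that median when each library is left out in turn. The members lie near 0, donor synthesis genes slightly above, mucous cell genes at 0.71 and B cell markers at -0.94.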

How the data were processed

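Raw read counts per gene, not normalized, were deposited by the authors in a single table of 4 libraries. HISAT2 is named, without a version, in the submitters' processing notes. Counting program, genome build, annotation and strandedness: not given in the sources used here, so values of paralogs and of overlapping or antisense genes are uncertain, and no coordinates are given. Chromosomes and neighbours come from a RefSeq gene table of assembly GRCg7b, in which 71 of 75 members were found. No gene lengths were used, so levels are not compared between genes.

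Counts were filtered with filterByExpr, normalised by TMM and tested with glmQLFit and glmQLFTest in edgeR 4.0.16 (R 4.3.3), as a two-sided test without covariates on 2 residual degrees of freedom. P-values were adjusted by Benjamini-Hochberg across 16545 genes. Each SE was derived from the F statistic, as the size of the log2 fold change over the root of F. The common biological coefficient of variation was 33.1%. Alternatives were DESeq2 1.42.0, limma-voom (limma 3.58.1), RLE factors, library totals, no filter, a replicate block and leaving out each library. The edgeR, DESeq2 and limma-voom tests were tested on simulated counts first.

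Named genes are, in each role, the 2 members with the most reads, the smallest p in each direction, and members with an unadjusted p under 0.05, called by DESeq2, on the Z chromosome or nearest the 1 CPM limit; in the other glycan and mucin lists, the smallest p in each direction and genes called by DESeq2. Other genes were named after their values were seen. Members and lists were chosen with earlier results of these data known. Of 441 entries of the other lists, 379 matched by symbol and 14 through the reference table. Of cell type lists, single genes are given for 3 tissue markers. Further median log2 fold changes were 0.09 (basal, -0.28 to 0.45 when a library was left out), 0.18 (endothelial, 0.02 to 0.34), 0.06 (nerve, -0.32 to 0.23) and 0.51 (erythrocyte, -0.13 to 1.03). In the nerve list, SYP was matched to SYNPR through the reference table, which may be wrong.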

Additional observations from a re-analysis of the deposited data

How the results depend on the processing

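Calls of members stayed at 0 in each direction under every alternative run, and calls over all genes were 50 higher and 82 lower with DESeq2 and 0 in the other alternatives. The 3 higher members with an unadjusted p under 0.05 became 0 with library totals, 0 with DESeq2 and 0 to 12 when a library was left out (0 without exposed replicate 1, 12 without control replicate 2). The 3 lower ones became 0 to 4 when a library was left out (0 without either exposed library). The members' median of 0.03 became -0.056 with library totals, 0.14 with limma-voom, 0.13 with the replicate block and 0.017 to 0.17 when a library was left out. With library totals the log2 fold changes of 8 of the 75 members changed sign, among them 4 of the 36 chosen by the rule for named genes, B3GNT9 (-0.060), B4GALT2 (-0.011), ST3GAL1 (-0.056) and FUT10 (-0.049). GALNT9, named only for its level near 1 CPM, is not counted in those 36. It ranged from -0.30 to 1.37 when a library was left out. Leaving out a library changed the sign of 40 of the 75, none of them called, and of 16 of those 36. The ranges of these 16 were -0.042 to 0.28 for GALNT10, -0.011 to 0.42 for C1GALT1, -0.61 to 0.15 for GCNT7, -0.23 to 0.98 for B3GNT2, -0.49 to 0.78 for B3GNT9, -0.058 to 0.21 for B4GALT2, -0.26 to 0.39 for ST3GAL1, -0.16 to 0.14 for ST6GAL1, -0.17 to 0.50 for ST6GALNAC3, -0.82 to 1.31 for ST8SIA2, -0.30 to 0.13 for ST8SIA4, -1.14 to 0.24 for ST8SIA5, -0.088 to 0.15 for FUT10, -0.35 to 0.94 for FUT5, -0.034 to 0.31 for CHST10 and -0.59 to 1.88 for CHST11. The cause was not tested. Deviations of same-numbered libraries had r = -0.00197 across 16545 genes. With 2 libraries a group, opposite orders in different genes can cancel, so this value cannot decide whether the numbers pair the libraries. In edgeR with the replicate block, 4 members had an unadjusted p under 0.05. Members with under 100 reads per library, such as CHST4, FUT7 and GALNT9, are limited by depth.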
